A study of Mus musculus with 8 samples.

Results

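The dystrophin-glycoprotein complex genes described here are Dmd, Sgcd, Sntb1, Utrn, Dag1, Sgca, Sgcb and Dtna, 8 of 21887 protein-coding mouse genes. Their peaks were taken from lists of sites enriched for H3R17me2a, histone H3 dimethylated asymmetrically at arginine 17, in heart cardiomyocyte nuclei that the series' title calls neonatal. A peak was assigned to a gene when it overlapped the RefSeq gene span (mm10) or 5 kb on either side, which selected 67 peaks. These merged into 45 regions of 28843 in the whole data set. The genes were chosen by function and by peak calls of these libraries that had already been seen, among them the shared positions and fold values of Dmd and Sgcd, so the numbers of calls below are descriptions without a test. Where 4 values are listed, the order is control 1, control 2, knockout 1, knockout 2.

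Every mouse carried the Carm1 fl/fl genotype, in which the gene of an arginine methyltransferase known to write this mark is flanked by loxP sites. On postnatal day 1 the knockout mice received AAV-CRE and the control mice AAV-GFP, and each group contributed 2 chromatin immunoprecipitation (ChIP) libraries and 2 input libraries. The control libraries are titled WT although they come from floxed mice. Infected and uninfected cardiomyocytes were mixed in these mosaic hearts, nuclei were sorted on the cardiomyocyte marker PCM1, and chromatin was cut with micrococcal nuclease. The infected share, the promoter that drives Cre, the exact age at collection and the number of animals behind a library were not given in the sources used here. Replicates may therefore be technical.

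The dystrophin-glycoprotein complex links the actin cytoskeleton of a muscle cell to the basement membrane and shields the sarcolemma during contraction. Dystrophin (Dmd) binds actin on the inner side and dystroglycan (Dag1) at the membrane, and dystroglycan binds laminin outside the cell. Sarcoglycans (Sgca, Sgcb, Sgcd) brace dystroglycan, and syntrophin (Sntb1) and dystrobrevin (Dtna) form a signalling scaffold. Utrophin (Utrn) is a close relative that can take the place of dystrophin. Inherited loss of dystrophin or of some sarcoglycans causes muscular dystrophy, in several forms with cardiomyopathy.

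The peak lists were called separately for each ChIP library and held 4980 (knockout 1) to 12990 (control 1) peaks. Read totals are unknown from the lists. The deleted gene, Carm1, had 0 peaks within 5 kb in each of the 4 lists, so peak positions do not check the knockout. Of 6 cardiomyocyte marker genes, 2 (Ttn and Ryr2) had a peak in at least 1 library. So did 0 of 4 fibroblast, 2 of 4 endothelial, 1 of 3 smooth muscle or pericyte and 1 of 3 macrophage or immune markers. Among all protein-coding genes 23% had a peak. The numbers expected from gene length, defined below, were 14.6, 2.37, 4.34, 2.43 and 2.27 peaks in the same order of cell types. Observed were 5, 0, 6, 1 and 1, so the calls do not single out cardiomyocyte genes. Ttn had 1 and 2 peaks in the controls, Ryr2 had 1 and 1, and both had 0 in the knockouts. Length gave 3.84 and 7.51 expected peaks for these genes over the 4 lists. Among all protein-coding genes 7.75% had a peak in both groups, so a gene with a peak mostly had it in 1 group only. Calls of a histone mark do not measure expression, and the part of other cells in the results was not tested.

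Peaks at the complex genes numbered 29 and 14 in the controls, 3 and 21 in the knockouts. Knockout 1 was far below the other libraries, and knockout 2 lay between the controls. Of the 8 genes, 5 held a peak in at least 1 library, where 23% of all protein-coding genes did. Dmd, Sgcd, Sntb1 and Utrn held peaks in control 1, control 2 and knockout 2, against 12.5%, 10% and 10.3% of all genes. In knockout 1 they were Dmd and Dag1, against 6.37% of all genes. A peak in both groups was called in 4 genes (7.75% of all genes), and a peak in all 4 libraries in Dmd alone (2.16% of all genes). Without knockout 2 the former count fell to 1 gene, Dmd. These percentages are printed beside counts that the choice of genes used, and nothing is read from the difference.

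The number expected from gene length was the list's peaks multiplied by the length of the span with its 5 kb flanks, over the summed chromosome lengths. It came to 22.4 and 15.0 peaks for the controls, 8.57 and 16.4 for the knockouts. Observed over expected was 1.30, 0.931, 0.350 and 1.28 in the same order, a mean of 0.96 ± 0.44 (SD, n = 4). The 67 peaks of the 4 lists thus stood beside 62.4 expected. The libraries fell on both sides of the expectation. Peaks as a whole avoid genes, and with the rate over protein-coding gene spans in place of the whole-genome rate the ratios were 1.70, 1.18, 0.434 and 1.62.

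**Figure D1:**
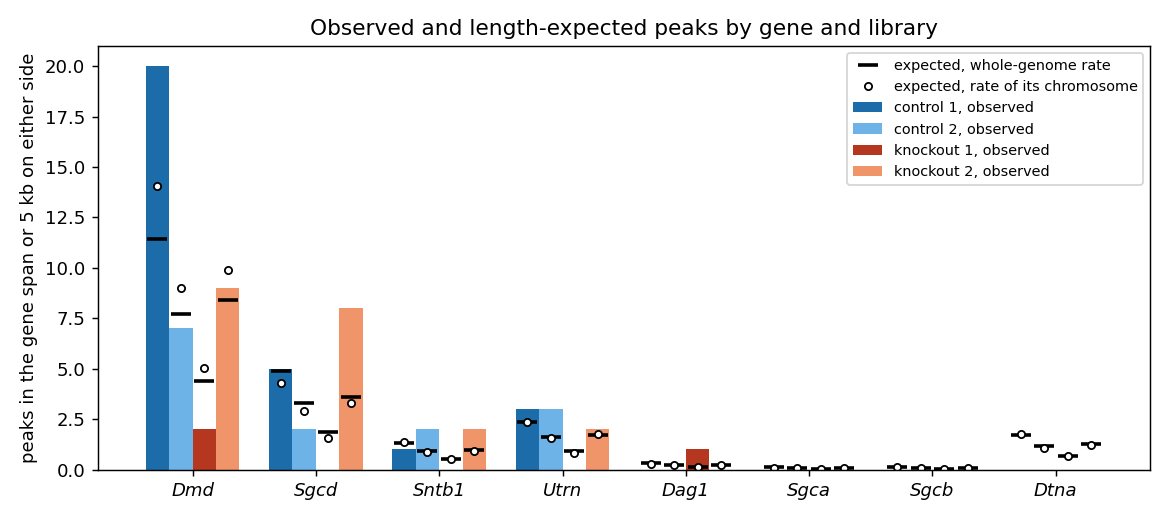
Bars give the peaks within the span or 5 kb of each gene (vertical axis, number of peaks) by library; black dashes are the number expected from gene length at the whole-genome rate and open circles at the rate of the gene's chromosome. Dmd in control 1 (20 peaks) and Sgcd in knockout 2 (8 peaks) stand highest above their marks, and Dtna, with 0 peaks, lies below its marks in every library.

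Per 1000 peaks of the list, the complex genes held 2.23 (95% Clopper-Pearson interval 1.50 to 3.20) and 1.60 (0.876 to 2.69) in the controls. The knockouts held 0.602 (0.124 to 1.76) and 2.20 (1.36 to 3.37). Such intervals cover counting error only, treat peaks as independent and make no allowance for the choice of genes on these calls. The controls averaged 1.92 ± 0.45 and the knockouts 1.40 ± 1.13 (SD, n = 2 each). The groups overlapped, and the difference of 0.514 was smaller than the SD between the knockouts. Without knockout 1 it was -0.286, in the opposite direction.

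Dmd, which encodes dystrophin on the cytoplasmic face of the sarcolemma, is the longest protein-coding gene of the annotation, at 2390 kb (chromosome X, 82814664 to 85205050). It held 20 and 7 peaks in the controls, 2 and 9 in the knockouts. The controls differed from each other by more than control 2 differed from either knockout. Length gave 11.5, 7.71, 4.39 and 8.40 expected peaks at the whole-genome rate. At the rate of chromosome X, where calls were denser, it gave 14.1, 9.004, 5.01 and 9.88. Summed over the lists, 38 peaks were observed, 32.0 expected at the whole-genome rate and 38.0 at the rate of chromosome X. By number of peaks Dmd ranked 4 among all protein-coding genes.

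The 38 Dmd peaks formed 26 regions, of which 18 were called in 1 library, 5 in 2, 2 in 3 and 1 in all 4. The region of all 4 libraries lay at chrX:83894525-83895171, 45.2% along the span. Its fold enrichment, the authors' ratio of summit fragments to background, was 8.17 and 8.84 in the controls, 4.35 and 5.91 in the knockouts. The peaks were 562, 467, 311 and 595 bp wide and rested on 12, 12, 8 and 8 fragments at the summit. Their summits lay within 189 bp of each other. Fold depends on the background used for each list, so these values describe each list and are not compared between libraries.

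The regions of 3 libraries were called in both controls and knockout 2. At chrX:84159681-84160372 the fold was 5.60, 8.73 and 4.45 in control 1, control 2 and knockout 2, on 7, 14 and 6 fragments. At chrX:84509703-84510695 it was 5.02, 5.44 and 5.12, on 6, 7 and 6 fragments, and the summits were spread over 767 bp. The latter lies within 5 kb of the predicted gene Gm52441, which is nested in the Dmd span, so its assignment to Dmd is by position alone. Of the regions in 2 libraries, 3 paired control 1 with knockout 2 (chrX:82976676-82977073, chrX:83036041-83036401 and chrX:84389433-84389981). Another paired the controls (chrX:83523809-83524180) and another control 2 with knockout 1 (chrX:84545509-84545957).

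Some Dmd calls of different libraries lay close together without touching. About 1731 kb from the lower end of the span, control 1 had a peak at chrX:84544979-84545368 with 7.89-fold enrichment, and the region of control 2 and knockout 1 began 140 bp further on. Another control 1 peak lay 390 bp before it. Knockout 2 and control 1 also had separate peaks 370 bp apart, at chrX:84005474-84005781 (6.58-fold) and chrX:84006152-84006384 (6.45-fold). Counting by exact overlap therefore treats neighbouring calls as different regions. Both knockout 1 peaks of Dmd were at positions that a control also called. Of the 9 knockout 2 peaks, 3 were at positions of their own, among them the call 370 bp from a control 1 peak. Over the whole lists, 47.0% of knockout 1 peaks and 34.1% of knockout 2 peaks lay in regions of 2 or more libraries. With 2 peaks in knockout 1, nothing is read from the difference.

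**Figure D2:**
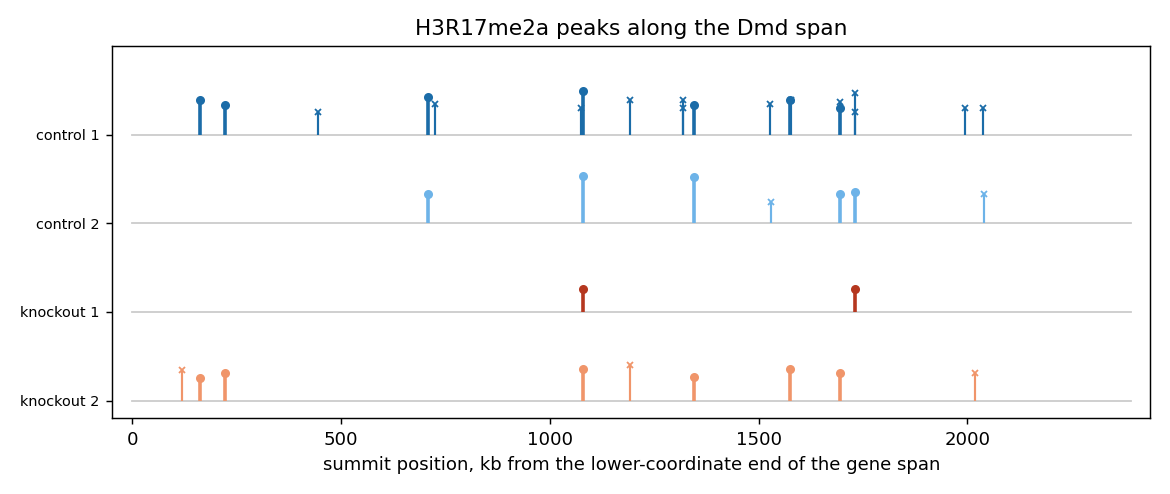
Each vertical stroke is a peak summit on the line of its library, placed by distance from the lower-coordinate end of the Dmd span (horizontal axis, kb) with height proportional to fold enrichment; thick strokes with dots belong to regions called in 2 or more libraries and thin strokes with crosses to regions called in 1. The region of all 4 libraries stands at 1080 kb, and the last peak lies 2040 kb along the span.

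No Dmd peak reached a start site listed for it in the RefSeq promoter table. RefSeq (GRCm38.p6) lists promoter windows for 6 of the 8 genes, each running from 250 bases before to 50 after a start site, and the closest peak summit of any of these genes lay 13.9 kb from its start site. The windows of Dmd and Sgcd, the genes with the most peaks, are shown as the starts that the calls did not reach. They are written 5′ to 3′ with a CArG box, a binding motif of serum response factor, in capitals where the window holds it. This motif reads the same on both strands and occurs in 1.63% of 32851 windows.
Dmd, start site 82948870 (chrX:82948620-82948919, plus strand): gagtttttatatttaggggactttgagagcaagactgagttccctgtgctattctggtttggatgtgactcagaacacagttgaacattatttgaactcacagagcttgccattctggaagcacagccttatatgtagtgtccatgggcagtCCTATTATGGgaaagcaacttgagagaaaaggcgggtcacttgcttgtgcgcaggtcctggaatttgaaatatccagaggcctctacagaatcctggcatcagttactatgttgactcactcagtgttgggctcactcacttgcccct
Dmd, start site 85048295 (chrX:85048045-85048344, plus strand): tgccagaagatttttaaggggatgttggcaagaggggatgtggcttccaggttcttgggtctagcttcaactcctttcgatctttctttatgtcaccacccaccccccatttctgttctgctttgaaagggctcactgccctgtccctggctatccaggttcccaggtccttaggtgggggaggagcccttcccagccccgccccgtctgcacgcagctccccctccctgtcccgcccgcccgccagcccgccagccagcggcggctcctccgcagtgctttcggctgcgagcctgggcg
Sgcd, start site 47379325 (chr11:47379276-47379575, minus strand): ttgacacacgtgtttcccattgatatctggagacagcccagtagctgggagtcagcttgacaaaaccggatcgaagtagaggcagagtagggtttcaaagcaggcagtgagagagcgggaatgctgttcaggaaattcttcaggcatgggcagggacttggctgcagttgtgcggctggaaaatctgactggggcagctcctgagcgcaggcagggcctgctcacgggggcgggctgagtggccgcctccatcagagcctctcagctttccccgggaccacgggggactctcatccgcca
The capitals begin 98 bases before the first Dmd start site (position -98), and the other windows hold no match, which says only that these letters are not in them. Guanine and cytosine made up 45.7% of the first window, 62.7% of the second and 59.0% of the Sgcd window, against a median of 52.7% over all windows. The peak edge nearest to the first Dmd start was 27.9 and 367 kb distant in the controls, 525 and 13.7 kb in the knockouts. For the second, the distances were 196, 194, 502 and 216 kb.

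Utrn encodes utrophin, the dystrophin relative, in 488 kb (chromosome 10, 12382187 to 12869888). It held 3 and 3 peaks in the controls, 0 and 2 in the knockouts. Length gave 2.37, 1.60, 0.91 and 1.74 expected. Of its 6 regions, 2 were called in 2 libraries and both lay at the lower-coordinate end, 0.879% and 1.41% along the span, which on this minus-strand gene is the 3′ end. The region chr10:12386112-12386704 had 5.90-fold enrichment in control 2 and 8.78-fold in knockout 2, on 8 and 11 fragments, with summits 61 bp apart. The region chr10:12388918-12389434 was called in the controls only, at 4.93- and 4.08-fold on 6 and 5 fragments. Control 1 had another peak 2783 bp further on (chr10:12392218-12392468, 4.92-fold). The terminal part of Utrn thus carried calls of 3 libraries in 3 adjoining regions, and the other 3 regions were single calls scattered up to 77.8% along the span.

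Sgcd encodes delta-sarcoglycan, a transmembrane subunit that is mutated in a limb-girdle muscular dystrophy and in cardiomyopathy. Its span of 1018 kb (chromosome 11, 46971077 to 47989451) held 5 and 2 peaks in the controls, 0 and 8 in the knockouts. Expected numbers were 4.91, 3.30, 1.88 and 3.60. A knockout library was thus both the lowest and the highest. The 15 peaks formed 9 regions, and 5 of these were called in 2 libraries.

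The highest fold enrichment of any complex gene was in Sgcd, at chr11:47453555-47453804. It was 13.2 in control 1 and 12.4 in knockout 2, on 19 and 16 fragments, with peaks 209 and 244 bp wide and summits 36 bp apart. In both lists this was at or above 98.7% of peaks. The region chr11:47640912-47641437 had 8.16-fold enrichment in control 2 and 12.2-fold in knockout 2, on 11 and 16 fragments, with summits 29 bp apart. At chr11:47428007-47429426, the widest region of the set at 1420 bp, control 1 had a peak of 904 bp (7.43-fold) that bridged a pair of knockout 2 peaks (6.44- and 5.10-fold). Control 1 with knockout 2 also shared chr11:47850621-47851230 (6.02- and 6.33-fold). The only Sgcd region shared by the controls and absent from the knockouts was chr11:47434204-47434679, with 5.72- and 6.09-fold enrichment on 7 and 8 fragments.

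All 9 Sgcd regions lay on the 5′ side of the start site shown above. That side makes up 59.9% of the span, 610 kb, and the 408 kb on the other side of the listed start held 0 regions. For comparison, 25 of 26 Dmd regions and 6 of 6 Utrn regions lay on the 3′ side of the outermost listed start, where 94.4% and 98.3% of those spans lie. The list of start sites is not complete. Every peak lay inside a gene span, but exons were not available, so exonic and intronic positions could not be told apart.

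Sntb1 encodes beta-1-syntrophin, an adaptor that docks signalling proteins on dystrophin. Its span of 271 kb (chromosome 15, 55636388 to 55907302) held 1 and 2 peaks in the controls, 0 and 2 in the knockouts, where 1.34, 0.902, 0.514 and 0.984 were expected. A region of 936 bp at chr15:55683741-55684676 was called in control 1 (9.88-fold, 838 bp, 15 fragments), control 2 (4.76-fold, 231 bp, 6 fragments) and knockout 2 (5.67-fold, 525 bp, 7 fragments). The other peaks of control 2 (chr15:55718705-55718939, 4.93-fold) and knockout 2 (chr15:55812009-55812239, 5.85-fold) were single calls.

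Dag1, which encodes both subunits of dystroglycan, had a single peak, in knockout 1 (chr9:108241538-108241984, 447 bp, 5.82-fold, 9 fragments). Its span is 59.1 kb, and 0.126 peaks were expected in that list and 0.92 over the 4 lists. Sgca and Sgcb, which encode alpha- and beta-sarcoglycan, had 0 peaks in every library, and their spans of 13.6 and 15.0 kb gave 0.314 and 0.333 expected over the 4 lists. At those lengths a missing call carries little information. Dtna, which encodes alpha-dystrobrevin, is longer at 350 kb and had 0 peaks where 4.79 were expected over the 4 lists (1.72 and 1.16 in the controls, 0.658 and 1.26 in the knockouts). Among 763 genes of 200 to 500 kb, 98 (12.8%) likewise had no peak in any library.

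**Figure D3:**
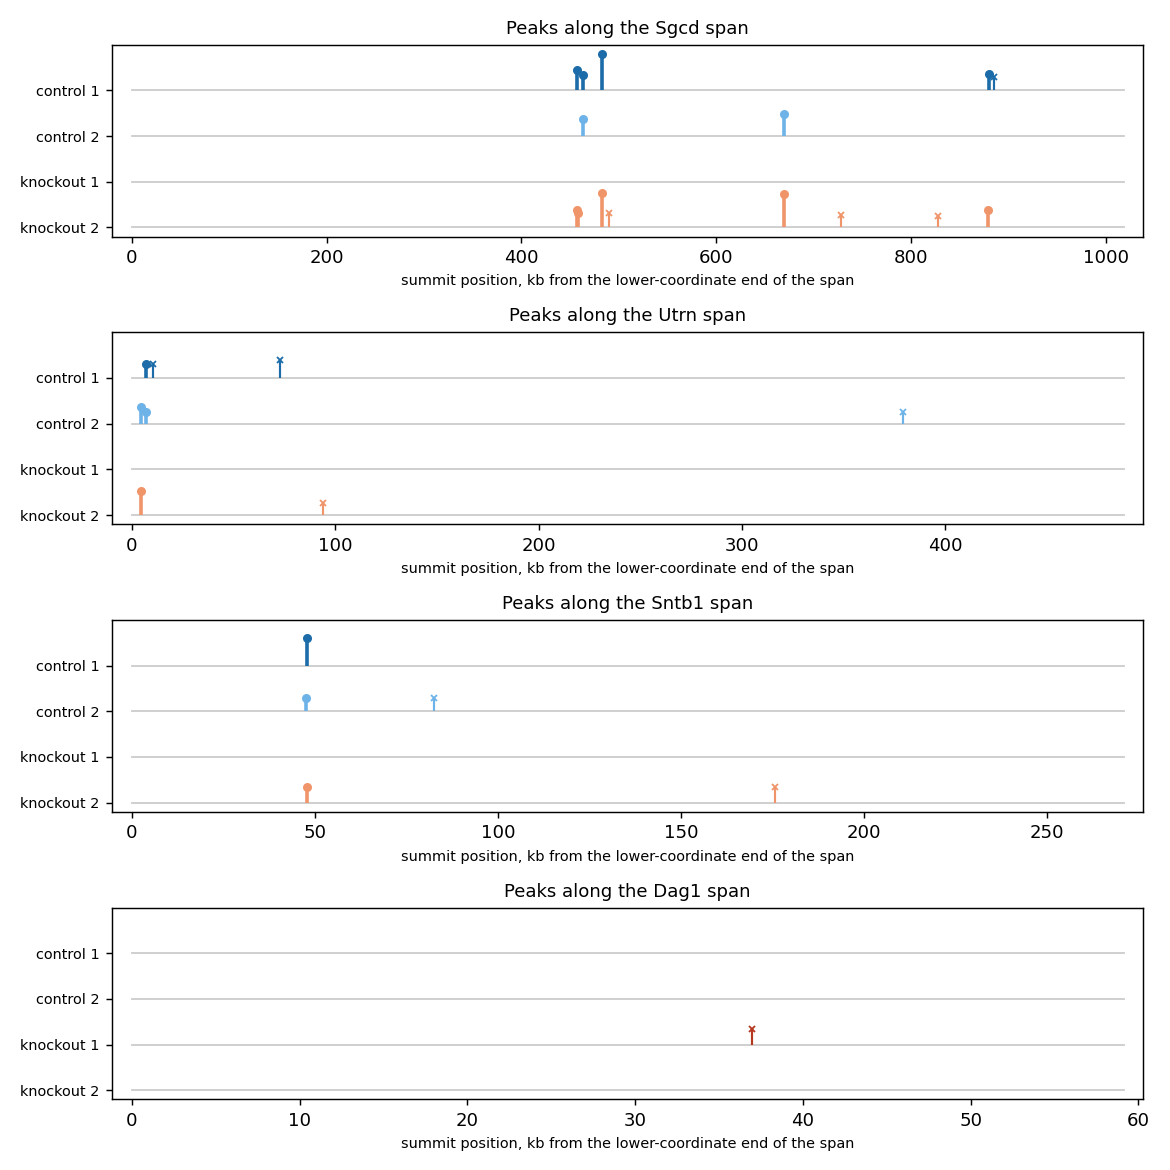
Peak summits along Sgcd, Utrn, Sntb1 and Dag1, drawn as for Dmd (horizontal axes, kb from the lower-coordinate end of each span; height proportional to fold; thick strokes with dots for regions of 2 or more libraries). The Sgcd summits all lie between 457 and 886 kb, the shared Utrn regions lie at the lower end of the span, and knockout 1 appears only in Dag1.

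Peaks at the 5 genes with calls had a median width of 296 bp (202 to 904 bp), a median fold of 5.72 (4.08 to 13.2) and a median of 7 fragments at the summit (5 to 19). Of the 67, 57 rested on 10 or fewer fragments. The lowest number was 5 and 5 in the controls, 8 and 5 in the knockouts, and the medians of the whole lists were 7, 7, 8 and 7. Whether a higher floor for calls lowered the count of knockout 1 was not tested. The median fold was 5.73 in control 1 and 5.69 over its whole list, 5.44 and 5.44 in control 2, 4.35 and 5.54 in knockout 1, and 5.67 and 5.66 in knockout 2. Peaks above the median of their own list numbered 17 of 29, 6 of 14, 1 of 3 and 11 of 21. The highest percentile within a list was 98.7, reached by Sgcd in control 1 and in knockout 2. At this depth a region missing from a list is not shown to lack the mark.

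**Figure D4:**
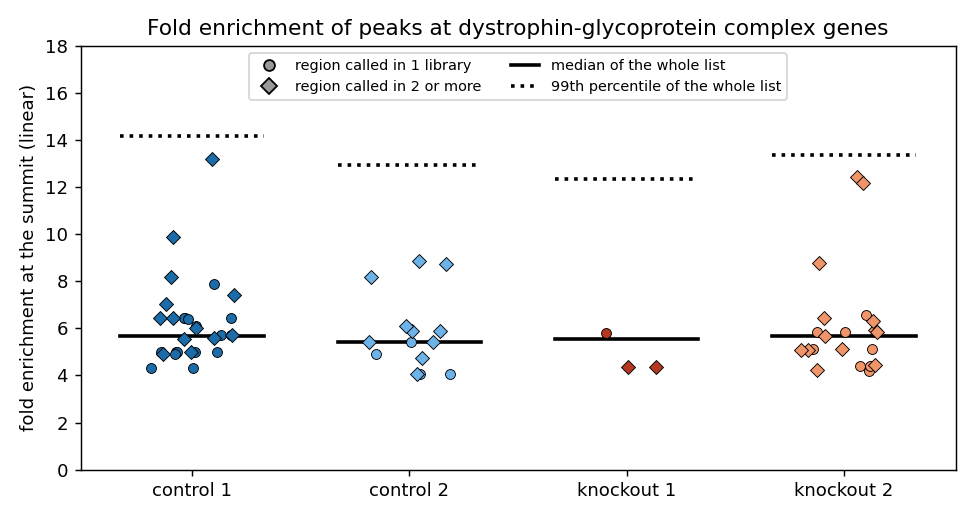
Each point is a peak at a complex gene (vertical axis, linear fold enrichment over the background of its list) by library; diamonds are regions called in 2 or more libraries and circles regions called in 1, solid lines are the median and dotted lines the 99th percentile of the whole list. All points lie below the dotted line of their list, and the Sgcd peaks of 13.2-, 12.4- and 12.2-fold come closest to it.

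Recurrence described how often the same position was called again. Of the 45 regions, 29 were called in 1 library, 12 in 2, 3 in 3 and 1 in 4. In all, 16 (35.6%) were called in 2 or more, where 16.4% of all regions were. The number depended on single libraries. It was 6 of 31 without control 1 (19.4%, against 13.3% of all regions), 10 of 41 without control 2 (24.4% against 14.6%), 15 of 44 without knockout 1 (34.1% against 14.2%) and 8 of 37 without knockout 2 (21.6% against 13.3%). A region of 2 or more libraries was held by Dmd, Sgcd, Sntb1 and Utrn, 4 of the 8 genes, against 5.23% of all protein-coding genes, and a region of all 4 by Dmd, against 0.758%. These genes had entered the selection partly through shared calls, so the difference supports nothing. Peaks of regions in 1 library had a median fold of 5.12 and a highest of 7.89 (29 peaks), those of regions in 2 libraries 6.02 and 13.2 (25 peaks), and those of regions in 3 or 4 libraries 5.60 and 9.88 (13 peaks). Median widths were 276, 328 and 467 bp in the same order.

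By group, 23 regions were called in controls only, 9 in knockouts only and 13 in both groups. Over all regions these classes made up 55.1%, 32.0% and 12.9%, and here 51.1%, 20.0% and 28.9%. Of the 16 recurrent regions, 13 joined a control with a knockout, 3 were called in both controls and neither knockout (1 each in Dmd, Sgcd and Utrn), and 0 were called in both knockouts and neither control. These are 81.2%, 18.8% and 0%, and of all recurrent regions the classes made up 78.6%, 14.8% and 6.64%. The commonest pair was control 1 with knockout 2, with 6 of the 12 regions of 2 libraries, 3 in Dmd and 3 in Sgcd. It was the commonest pair over all genes and intergenic regions too, with 940 of 3068 (30.6%). Knockout 1 contributed 3 peaks in all, which limits how many regions of both knockouts could occur. Per gene, both controls and not both knockouts were reached in Sgcd, Sntb1 and Utrn, 3 of the 8 genes, each with calls in knockout 2 as well, and in 2.91% of all protein-coding genes. Of all protein-coding genes, 5.07% held a peak in both controls and 3.44% in both knockouts.

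The share of genes with a peak rose with the class of gene length. A peak in at least 1 library was found in 13.3% of genes under 50 kb (where Sgca and Sgcb belong), 47.7% of those of 50 to 200 kb (Dag1), 87.2% of those of 200 to 500 kb (Sntb1, Utrn and Dtna), 98.8% of those of 500 to 1000 kb and 100% of those of 1000 kb or longer (Dmd and Sgcd). A region of 2 or more libraries was held by 31.3% of genes of 200 to 500 kb and 76.3% of the 59 genes of 1000 kb or longer. Observed over expected, summed over the lists, was 1.19 for Dmd and 1.10 for Sgcd, and the quartiles of their class were 0.649 and 1.19. It was 1.34 for Sntb1 and 1.21 for Utrn, with class quartiles of 0.305 and 1.17. In the class of Dmd, 15 of 59 genes had a higher ratio, and in that of Sntb1 159 of 763.

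The genes whose peak numbers over the 4 libraries came nearest to those of Dmd were also very long. Lsamp, a neuronal cell adhesion gene, had 15 and 6 peaks in the controls, 3 and 11 in the knockouts, a summed absolute difference of 9. Csmd1 (13, 5, 4 and 9), Dlg2 (16, 10, 7 and 8), Galntl6 (12, 6, 4 and 7) and Pde4d (8, 7, 1 and 10) followed at 11, 13, 13 and 14. Their spans were 2197, 1643, 1973, 1140 and 1302 kb.

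The complex has further partners, 47 genes in 7 lists of relatives, ligands, glycosylation enzymes and costamere neighbours, all matched in the annotation. Of these, 15 had a peak in at least 1 library (23% of all genes did), with 11 and 7 in the controls, 8 and 10 in the knockouts. They held 66 peaks where 119 were expected from length, and 6 held a region of 2 or more libraries (5.23% of all protein-coding genes did). Sntg1, a syntrophin gene of 942 kb, held the only one of all 4 libraries, at chr1:8688345-8689388, with 6.76- and 6.80-fold enrichment in the controls, 6.74- and 7.47-fold in the knockouts. It held another of both controls at chr1:8694836-8695137 (4.30- and 5.41-fold).

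Among the ligands, Lama2, the laminin chain that binds dystroglycan in muscle, held a region of control 1 and knockout 2 (chr10:27311974-27312318, 5.73- and 5.85-fold) and another of both controls (chr10:27360067-27360438, 7.89- and 4.76-fold). Of 12 costamere neighbours, 5 had a peak (23% of all protein-coding genes did), with 16 peaks where 28.6 were expected from length. Dysf, the gene of the membrane repair protein dysferlin, shared chr6:84135232-84135980 between control 2 and knockout 2 (5.44- and 6.91-fold), and Tln2 (talin 2) held a region of both knockouts alone. Sgcz, a sarcoglycan gene of 1144 kb named after its calls were seen, had 6 and 0 peaks in the controls, 2 and 1 in the knockouts, at 9 different positions. Length gave 15.4 expected peaks for Sgcz over all lists together. Of all regions in the data set, 83.6% were likewise called in 1 library only.

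The 5 kb limit decided none of the assignments, since 0 of the 67 peaks lay in a flank. The closest to an end was a Utrn peak of control 2, 3.93 kb inside the span (5.90-fold). Just outside the limit were a knockout 2 peak 6.66 kb from Sgca (5.85-fold), a knockout 1 peak 6.78 kb from Sntb1 (6.22-fold) and a knockout 1 peak 8.17 kb from Utrn (5.54-fold).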

How the data were processed

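The authors deposited a peak list per ChIP library; replicates were not pooled, per the labels. The submitters' processing notes name FastQC, MultiQC, Bowtie2, MACS2 and DiffBind with build mm10. Which settings and versions they used was not given in the sources used here. Each deposited fold enrichment is a ratio of summit fragments to background, whose values fit a formula that adds 1 to both. Whether that background came from the ChIP library or from its input was not given in the sources used here. Deposited −log10 p and −log10 q values give its significance. The lowest deposited −log10 p was 5.00. A deposited display score was not used. The whole number of fragments at each summit was solved from fold and p (tolerance 0.01 in −log10 p) and was found for all 67 peaks and for 99.3% (knockout 1) to 99.7% (control 1) of each list.

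Autosomal, X and Y peaks were linked to RefSeq spans (GRCm38.p6) with 5 kb flanks and merged within a gene where they overlapped by at least 1 bp. Chromosome lengths were the furthest annotated gene or peak end (2722 Mb in all); unsequenced parts were not left out. Counting steps were tested on simulated data. The genes, lists and tests were chosen with earlier results of these data known. The 8 genes were named in full; of the wider lists, genes with a region in 2 or more libraries, at most 12; and the 5 genes nearest to Dmd in peak number. Some genes that this rule names are not reported here. Input libraries (4) have no peak list here. Python 3.11.15, NumPy 2.4.6, pandas 2.3.3, SciPy 1.17.1 and Matplotlib 3.10.9 were used.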

Additional observations from a re-analysis of the deposited data

How the results depend on the processing

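The number of regions at the complex genes, 45, fell by construction to 18 when peaks under a −log10 q of 5 were dropped and to 25 when each list kept its best 4980 peaks. Leaving out a library gave 31 to 44. Regions in 2 or more libraries, 16, became 5 and 10 under these settings and ranged from 6 without control 1 to 15 without knockout 1; they were 10 without control 2 and 8 without knockout 2. Genes with a peak in both groups, 4, ranged from 1 (Dmd, without knockout 2) to 4. The mean of observed over expected moved by less than its SD between libraries under all 12 alternatives, and lay between 0.854 and 1.17 when libraries were left out. That SD, 0.44 beside a mean of 0.96, is a loose yardstick. Leaving out a library could not have moved the mean that far, since a single dropped value shifts a mean by less than the SD. The settings for flanks and summits could hardly move it either, with 0 peaks in a flank. Agreement under these settings therefore carries no information. Single libraries moved more: at a −log10 q of at least 5 they gave 1.76, 0.835, 0 and 1.06. The control minus knockout difference per 1000 peaks lay between -0.286 and 1.31 when a library was left out, and reversed, at -0.286, only without knockout 1. The difference was 1.32 at a −log10 q of at least 5, where knockout 1 held 0 per 1000, and 0.904 with lists of 4980 peaks. Without Dmd it was 0.017. With the replicate block the difference was 0.514, which equals the value without it by construction. The numbered pairs gave 1.63 and -0.602, opposite in sign, and the labels do not say that the numbers mark a shared animal or day.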
